A study of Mus musculus with 2 samples.

Results

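Heat shock proteins, chaperonins and their helpers were examined in ALL211, a T-cell acute lymphoblastic leukemia that arose in a mouse. The members are 54 named genes, found in the count table by Entrez identifier, of 27179 genes in all. By the place where their proteins work, 9 are mitochondrial, 22 are cytosolic heat shock proteins and co-chaperones, 8 form the cytosolic CCT ring, 5 are subunits of prefoldin and 10 belong to the endoplasmic reticulum (ER). Of the 54, 53 passed the expression filter of at least 1 CPM (a count scaled for depth) in at least 1 library, and all 53 reached that level in the untreated library. The exception was Hspb1, a small heat shock protein, with 0 counts in both libraries, which allows up to 0.176 CPM when untreated and 0.183 CPM with Dox (3 counts).

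Both libraries came from leukemia cells that carry Vav-tTA and TRE-GFP-shIkaros: a transactivator expressed in blood cells from the Vav promoter drives GFP and a hairpin that silences Ikaros, and both go off when doxycycline (Dox) is given. Cells were sorted from the spleens of leukemic recipient mice, as GFPhigh cells from untreated animals and as GFPmid cells after 3 days of Dox. ALL211 is 1 leukemia, the ages and strain of the mice were not used here, and each condition has 1 library. The differences therefore have no replicate check, no test between conditions was possible, and Dox, the return of Ikaros, the sorting gate and the mouse cannot be told apart. Intervals in brackets are 95% counting intervals of the ratio and cover counting error only.

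The libraries held 16960042 (untreated) and 16484613 (Dox) counts. Ikzf1, which encodes Ikaros, was at 120.5 CPM when untreated and 1229 CPM with Dox, the direction of the labels. All 10 T-cell markers were detected in both libraries, with a summed level of 6570 and 8144 CPM. Summed over each list, markers of other cells were higher in the Dox library. The 12 macrophage genes summed to 12.7 and 170.6 CPM, of which Mpeg1 alone had 1.64 and 96.8 CPM. For 7 dendritic cell genes the sums were 1.11 and 47.6 CPM (Clec9a, Siglech, Zbtb46 and Batf3 at 0 counts when untreated). For 8 erythroid genes they were 11.8 and 78.6 CPM, and for 7 neutrophil genes 4.74 and 9.83 CPM (Mpo at 0 counts when untreated). Among B-cell and plasma cell genes, Pax5 was at 0 counts in both libraries, and Ms4a1 and Jchain were at 0 counts in the untreated library. Their summed level of 392.5 and 977.5 CPM was mostly Ighm. Within these lists, single genes were lower in the Dox library: Sdc1 had 745 and 372 counts, Klf1 18 and 12, and S100a8 28 and 26. The part of these cells in the differences below was not tested.

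Chaperones help proteins fold, keep unfolded proteins from aggregating and hand them on to partners or proteases. Hsp70 proteins bind short exposed stretches with the help of J-domain proteins and nucleotide exchange factors, Hsp90 proteins act later on signalling proteins and receptors, and chaperonins enclose a protein in a chamber. In the cytosol many of these genes are targets of the heat shock factor Hsf1, and in the ER of the unfolded protein response. Leukemia cells commonly hold high levels of several of them.

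The chaperone genes were mostly lower in the Dox library, by amounts that differed between compartments, without a test. Together they took 2.74% of counts in the untreated library (Wilson 95% interval 2.73 to 2.75) and 1.24% in the Dox library (1.24 to 1.25), a 2.17-fold lower summed level. Of the 53 expressed members, 46 had a log2 fold (Dox against untreated) below 0, 17 were lower by 2-fold or more and 0 higher by as much. Over all 12125 expressed genes, 50.7% had a log2 fold below 0, 13.0% were lower by 2-fold or more and 13.6% higher by as much. For 16 members the counting interval lay wholly beyond 2-fold lower (8.38% of all genes), and 35 members were at least 1.5-fold lower (24.1% of all genes). The members' median log2 fold was -0.76, against -0.01 for all expressed genes. In bulk libraries of sorted cells, fewer cells with high expression and less RNA per cell cannot be told apart.

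By compartment, 4 of 9 mitochondrial members, 8 of 21 expressed cytosolic heat shock and co-chaperone genes and 5 of 8 CCT subunits were at least 2-fold lower. The counts were 0 of 5 for prefoldin and 0 of 10 for ER genes. Over all expressed genes the share was 13.0%, and 0 among so few genes is not far from it. The median log2 folds were -0.88 for the mitochondrial, -0.65 for the cytosolic, -1.21 for the CCT, -0.25 for the prefoldin and -0.48 for the ER genes. Summed over the genes of each group, levels were 3.18-fold lower for the mitochondrial group, 2.52-fold for the cytosolic group, 2.16-fold for CCT, 1.17-fold for prefoldin and 1.41-fold for the ER. The cytosolic sum rested in part on 1 gene, Hsp90ab1, and was 2.10-fold lower without it. With 1 library a condition, the differences between compartments were not tested.

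**Figure D1:**
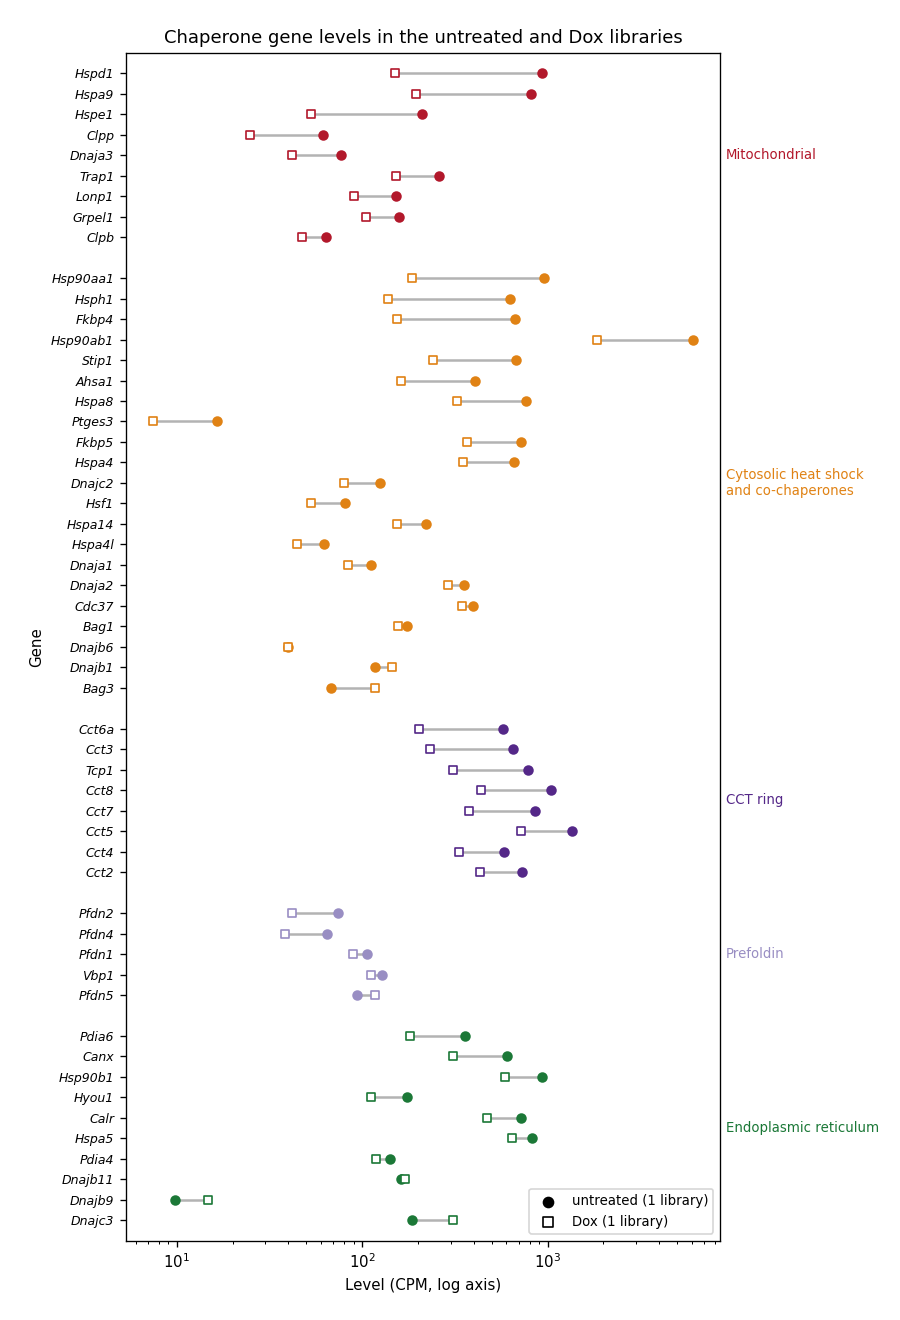
Level of each of the 53 expressed chaperone genes in CPM (log axis) in the untreated library (filled circles) and the Dox library (open squares), 1 library each, grouped by compartment and ordered by fold. The open squares lie left of the circles for 46 genes, with the longest bars for Hspd1, Hsp90aa1 and Hsph1.

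Among the mitochondrial members, Hspd1, Hspa9 and Hspe1 had the lowest log2 folds. Hspd1 encodes the chaperonin Hsp60, whose barrel is capped by Hsp10, the product of Hspe1. Hspd1 was at 928.1 CPM in the untreated library (15844 counts) and 149.5 CPM in the Dox library (2448 counts), 6.21-fold lower, with a log2 fold of -2.63 (-2.70 to -2.57). Hspe1 was at 211.4 and 52.9 CPM, a log2 fold of -2.00 (-2.11 to -1.89). Hspd1 had the lowest log2 fold of all members, and 1.44% of expressed genes lay below it.

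Per length, the chaperonin pair was closer to parity in the Dox library. On the scale of RPKM (CPM per kilobase of the gene length in the table), Hspd1 was at 398.0 and Hspe1 at 275.2 in the untreated library, a ratio of 1.45. The ratio was 0.931 in the Dox library, where Hspd1 was at 64.1 and Hspe1 at 68.9 RPKM. Pseudogenes named after the gene in GENCODE M21 number 5 for Hspd1 and 6 for Hspe1. The sources do not say how reads that fit several copies were counted, so the level of each is uncertain. Hspa9, Dnaja1, Ptges3, Tcp1, Cct3 and Calr have 1 such copy each. Copies under other names were not counted, for any member.

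Hspd1 and Hspe1 lie head to head on chromosome 1. Their RefSeq starts (GRCm38.p6) are 216 bases apart, Hspd1 reading left from 55087932 and Hspe1 reading right from 55088148; RefSeq gives a further Hspd1 start at 55088243. A heat shock element, the site bound by heat shock factors, is built from alternating GAA and TTC units. The stretch between the starts holds 4 such units in a row. It is shown here because 1 element lies upstream of both facing starts of the chaperonin pair, beside the elements of other members, Hsph1 and Dnajb6, which had very different folds. The capitals mark the GAA and TTC units, all in the plus strand of GRCm38.p6, from chr1:55088054-55088081, chr5:149636283-149636305 and chr5:29735847-29735869.
Hspd1 and Hspe1: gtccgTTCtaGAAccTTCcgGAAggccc
Hsph1: gaggaGAActTTCcaGAAtctgc
Dnajb6: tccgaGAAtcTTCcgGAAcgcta

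The search used RefSeq windows of 300 bases, 250 before and 50 after each start, which held 45 of the 54 members in 54 windows. Cct4, Dnajc2, Hsf1, Hsp90aa1, Hsp90ab1, Hspa8, Hspa9, Hyou1 and Pfdn1 were not matched. The 3-unit element GAANNTTCNNGAA, on either strand, was in 0.603% of all 32851 windows and in 6 of the 54 member windows, those of Hspd1, Hspe1, Hsph1 and Dnajb6. Its units begin 89 bases before the Hspe1 start and 46 bases before a Dnajb6 start, and lie 16 to 28 bases after a Hsph1 start. The folds of these genes were not alike: Hspd1 -2.63, Hsph1 -2.19 and Hspe1 -2.00, but Dnajb6 0.01. The shorter GAANNTTC, which the longer element contains, was in 7.86% of all windows and 20.4% of member windows, with Bag3, Cct2, Dnaja1, Fkbp4 and Hspb1 in addition. The E-box CACGTG was in 7.15% of all windows and 13.0% of member windows, those of Calr, Dnajb9, Fkbp5, Hspd1, Hsph1 and Lonp1. Some member windows overlap: those of Hsph1 hold the same sites, as do those of Dnajb6, and Hspd1 and Hspe1 share their heat shock element. The counts and shares of member windows thus include some sites more than once. The matches describe the letters in the windows only.

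The mitochondrial Hsp70 system was split between its motor and its helpers. Hspa9, the Hsp70 of the matrix (mortalin), was at 813.6 and 194.1 CPM, 4.19-fold lower (log2 fold -2.07, -2.12 to -2.01). Its helpers differed less. Dnaja3, a J-domain partner, was at 76.9 and 41.8 CPM (log2 fold -0.88), and Grpel1, the nucleotide exchange factor, at 158.1 and 105.2 CPM (-0.59). Exons of Grpel1 share 11.6% of their bases with Tada2b on the other strand, whose reads cannot be told apart without a known strand setting.

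The proteases and the remaining chaperones among the mitochondrial members were lower as well. Clpp, the proteolytic chamber of the ClpXP protease, was at 61.6 and 24.7 CPM (log2 fold -1.31, -1.49 to -1.15). Lonp1, the Lon protease, was at 152.4 and 90.1 CPM (-0.76), and Trap1, the Hsp90 of mitochondria, at 258.5 and 152.2 CPM (-0.76). Clpb, a disaggregase, was at 64.1 and 47.2 CPM (-0.44), the member of the group that differed least. All 9 mitochondrial members had counting intervals wholly below 0, as had 40.0% of all expressed genes.

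In the cytosol, Hsp90 and its co-chaperones were the most abundant group and most of them were lower. Hsp90ab1, the constitutive Hsp90, was at 6086 CPM in the untreated library (103888 counts) and 1845 CPM in the Dox library (30209 counts), a log2 fold of -1.72 (-1.74 to -1.70). Hsp90aa1, the inducible Hsp90, was at 952.1 and 185.3 CPM (log2 fold -2.36, -2.42 to -2.31). Per length, Hsp90ab1 stood 7.27-fold above Hsp90aa1 in the untreated library and 11.3-fold in the Dox library. The inducible form was thus the lower of the pair in both libraries, and had the lower fold.

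All of the co-chaperones of Hsp90 among the members were lower, Cdc37 by the least. Stip1, which links Hsp70 to Hsp90, was at 675.0 and 242.1 CPM (log2 fold -1.48, -1.53 to -1.43). Ahsa1, the activator of the Hsp90 ATPase, was at 404.4 and 161.6 CPM (-1.32, -1.39 to -1.26). Fkbp4, the immunophilin that promotes steroid receptor transport, was 4.33-fold lower, at 666.1 and 153.7 CPM (-2.12, -2.18 to -2.05). These co-chaperones were all at least 2-fold lower. Fkbp5, the immunophilin that restrains the glucocorticoid receptor, was at 715.3 and 369.1 CPM (-0.95, -0.999 to -0.91). Per length, Fkbp5 was below Fkbp4 in the untreated library (ratio 0.695) and above it in the Dox library (ratio 1.55). Cdc37, which brings kinases to Hsp90, was at 396.6 and 346.8 CPM, a log2 fold of -0.19 (-0.25 to -0.14). Ptges3, the p23 co-chaperone, had only 282 and 122 counts (-1.14, -1.47 to -0.84), and its level is uncertain because reads may be shared with a pseudogene. Of the 8 cytosolic genes called at least 2-fold lower, Ptges3 alone had an interval that reached inside 2-fold.

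Cytosolic Hsp70 proteins and their exchange factors were lower to different degrees. Hspa8, the constitutive Hsp70, was at 761.0 and 325.4 CPM (log2 fold -1.22, -1.27 to -1.18). Hsph1, an Hsp110 exchange factor, was 4.56-fold lower, at 625.4 and 137.3 CPM (-2.19, -2.25 to -2.12). Its relatives differed less: Hspa4 was at 662.5 and 351.3 CPM (-0.91) and Hspa4l at 62.4 and 44.8 CPM (-0.48). Per length, Hspa4 stood at 0.794 of Hsph1 in the untreated library and 1.92-fold above it in the Dox library. Hspa14, an Hsp70 that works at the ribosome, was at 221.1 and 153.3 CPM (-0.53), and its ribosomal J-domain partner Dnajc2 at 125.5 and 79.7 CPM (-0.65).

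The cytosolic members that were higher are among the J-domain and BAG proteins. Dnaja1, with 10.8% of its exon bases shared with other genes, was at 112.2 and 84.1 CPM (log2 fold -0.42) and Dnaja2 at 352.5 and 291.7 CPM (-0.27). Dnajb6, which suppresses protein aggregation, had 677 and 655 counts, and its interval of -0.14 to 0.17 spanned 0. Dnajb1, the classical heat-inducible Hsp40, was higher at 117.2 and 145.7 CPM (0.31, 0.23 to 0.40). Bag3, a heat-inducible co-chaperone of selective autophagy, was higher, at 67.8 and 117.0 CPM (0.79, 0.68 to 0.89), the highest fold of all members. Bag1, an exchange factor, was at 175.0 and 155.8 CPM (-0.17). Hsf1, the master heat shock factor, was at 80.5 and 53.3 CPM (-0.59, -0.72 to -0.47). Heat-inducible genes therefore stood at both ends of the group by fold, Hsp90aa1 and Hsph1 lowest and Dnajb1 and Bag3 highest.

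**Figure D2:**
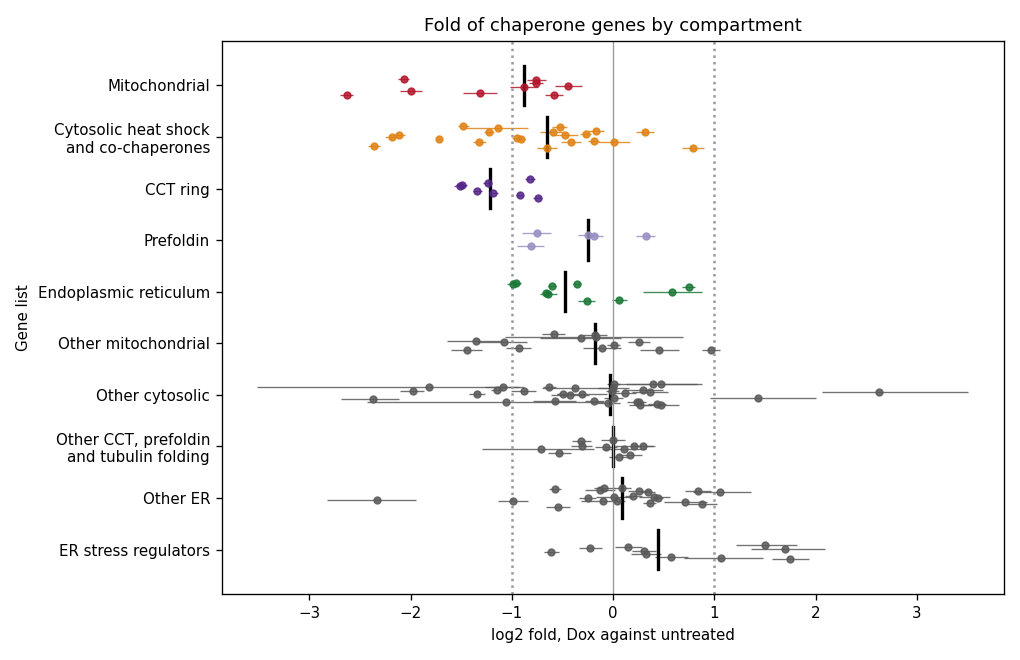
Log2 fold of each gene with its 95% counting interval, for the members by compartment (coloured) and for further lists of the same machinery (grey); short black bars are medians and dotted lines mark 2-fold. Mitochondrial and CCT genes all lie left of 0, while the ER stress regulators have a median of 0.45.

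The CCT ring, also called TRiC, folds actin, tubulin and many WD40 proteins. All 8 subunit genes were lower in the Dox library, with log2 folds from -1.51 to -0.75. Cct6a was at 576.3 and 201.7 CPM (-1.51, -1.57 to -1.46), Cct3 at 654.7 and 231.8 CPM (-1.50, -1.55 to -1.44), and Tcp1, the founding subunit, at 787.7 and 310.9 CPM (-1.34, -1.39 to -1.30). Cct8 (1040 and 440.0 CPM, -1.24) and Cct7 (856.2 and 377.0 CPM, -1.18) were also at least 2-fold lower. The remaining subunits lay within 2-fold: Cct5 at 1359 and 716.8 CPM (-0.92), Cct4 at 585.2 and 331.4 CPM (-0.82) and Cct2 at 726.7 and 433.1 CPM (-0.75). Intervals of the lower 5 and the other 3 did not overlap, so the unequal folds exceed counting error.

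Since each ring takes up its subunits in equal number, their levels were compared per length. The median was 341.3 RPKM in the untreated library and 161.2 RPKM in the Dox library. Cct5 was highest in both, at 768.5 and 405.2 RPKM, and Cct6a lowest, at 279.8 and 97.9 RPKM. The highest subunit stood 2.75-fold above the lowest in the untreated library and 4.14-fold in the Dox library, and the coefficient of variation over the 8 subunits was 39.9% and 52.5%. The RNA levels of the subunits were thus less even in the Dox library, without a test. Cct6a and Tcp1 share 15.3% and 16.9% of their exon bases with other genes.

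Prefoldin, which hands unfolded actin and tubulin to CCT, had a median log2 fold of -0.25, with unequal folds between its subunits. Pfdn2 was at 74.2 and 42.1 CPM (log2 fold -0.82, -0.95 to -0.68) and Pfdn4 at 64.7 and 38.3 CPM (-0.75, -0.90 to -0.61). Pfdn1 was at 106.5 and 89.8 CPM (-0.25) and Vbp1, which encodes the third subunit, at 127.2 and 111.6 CPM (-0.19). Pfdn5, also known as a Myc-binding protein, was the exception in direction, at 94.1 and 117.7 CPM (0.32, 0.23 to 0.42). Per length the spread from lowest (Pfdn4) to highest (Pfdn5) was 2.27-fold in the untreated and 4.79-fold in the Dox library. Exons of Pfdn2, Pfdn4 and Pfdn5 share 27.6%, 28.7% and 11.8% of their bases with other genes, and these genes are short: after a trend of fold with gene length over all genes was removed, the median of prefoldin was -0.074.

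**Figure D3:**
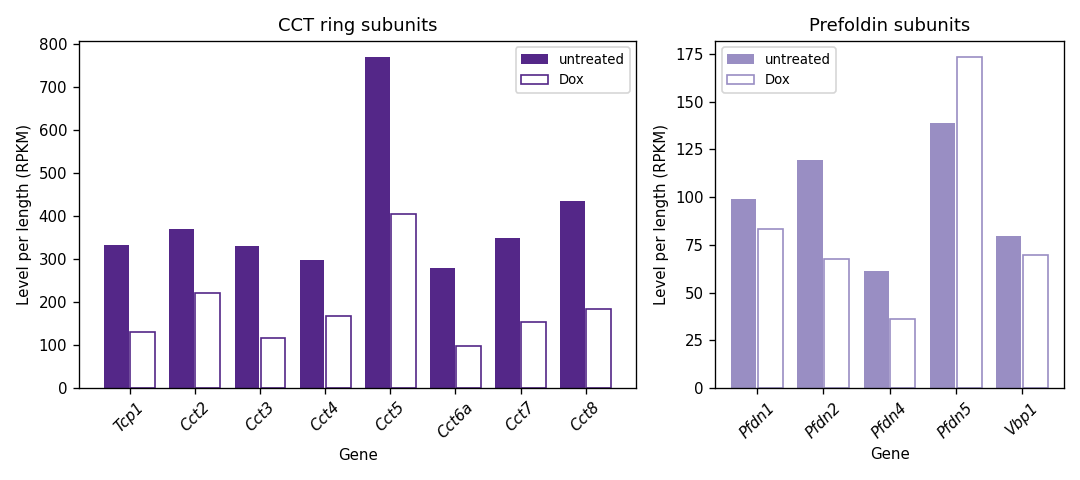
Level per length (RPKM) of the 8 CCT subunit genes and the 5 prefoldin genes in the untreated library (filled bars) and the Dox library (open bars), 1 library each; the panels have separate axes. All CCT bars are lower in the Dox library, and Pfdn5 is higher.

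The ER chaperones were lower by less, and all 10 lay within 2-fold, as did 8900 of all 12125 expressed genes. Hspa5, the ER Hsp70 BiP, was at 828.0 and 646.6 CPM (log2 fold -0.36, -0.39 to -0.32). Hsp90b1, the ER Hsp90 (Grp94), was at 935.8 and 590.3 CPM (-0.66, -0.70 to -0.63), with 15.7% of its exon bases shared with other genes. Hyou1, an exchange factor of BiP, was at 173.7 and 111.4 CPM (-0.64). The lectin chaperones that hold glycoproteins were Canx, at 601.8 and 308.7 CPM (-0.96, -1.01 to -0.91), and Calr, at 717.7 and 473.1 CPM (-0.60). The disulfide isomerases differed from each other: Pdia6 was at 358.2 and 180.7 CPM (-0.99, -1.05 to -0.92), but Pdia4 at 141.8 and 118.3 CPM (-0.26). Pdia6 and Canx lay at the edge of 2-fold: Pdia6 crossed it with total counts and with DESeq2 size factors, and Canx after removal of the length trend.

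The J-domain proteins of the ER stood apart from its other members. Dnajb11, a partner of BiP, was at 162.3 and 169.5 CPM, with an interval of -0.01 to 0.14 that spanned 0. Dnajb9, a partner of BiP in degradation of misfolded proteins, had 168 and 242 counts (log2 fold 0.58, 0.30 to 0.88). Dnajc3, known as an inhibitor of the stress kinase PERK, was at 184.9 and 310.2 CPM (0.75, 0.68 to 0.81). The summed levels of the macrophage and dendritic cell markers, given above, were higher in the same library. The part of those cells in these differences was not tested.

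Set side by side per length, the Hsp70 paralogs of the 3 compartments were in a different order in each library. Hsp90ab1, Hsp90b1 and Trap1 kept the same order, from highest to lowest, but Hsp90aa1 did not keep its place. Hsp90aa1 was at 334.1 RPKM and Trap1 at 112.5 RPKM in the untreated library, against 65.0 and 66.2 RPKM in the Dox library. Per length, the cytosolic Hspa8 stood 1.35-fold above the mitochondrial Hspa9 in the untreated library and 2.42-fold in the Dox library, while it went from 1.14-fold above the ER Hspa5 to 0.626 of it. The cytosolic Hsp90ab1 stood 7.16-fold above the ER Hsp90b1 in the untreated library and 3.44-fold in the Dox library. For Hsp70 the folds thus ran from mitochondrial (Hspa9, -2.07) through cytosolic (Hspa8, -1.22) to ER (Hspa5, -0.36), with intervals that did not overlap. For Hsp90 the order of the folds was another: Hsp90aa1 (-2.36) and Hsp90ab1 (-1.72) were lowest, and the intervals of Trap1 (-0.76) and Hsp90b1 (-0.66) overlapped.

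The ER stress response element, the classical site of ER chaperone promoters, reads CCAAT, 9 free bases and CCACG. It was in 0.119% of all 32851 windows and in those of 6 of the 9 ER members with a window, against 0 of the other 36 members. The elements are shown because they mark off the ER group by sequence while its folds went both ways. Each is written in the direction that reads CCAAT first, with the fixed bases in capitals; positions (GRCm38.p6) are chr2:34772020-34772048 for Hspa5, chr10:86705633-86705661 and chr10:86705528-86705556 for Hsp90b1, chr8:84847070-84847098 for Calr, chr11:50325795-50325823 for Canx, chr12:17266486-17266514 for Pdia6 and chr14:118937822-118937850 for Dnajc3. The plus strand is shown for Hspa5, the second of Hsp90b1, Calr, Pdia6 and Dnajc3, and the minus strand for the first of Hsp90b1 and Canx.
Hspa5: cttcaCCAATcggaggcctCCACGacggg
Hsp90b1, first: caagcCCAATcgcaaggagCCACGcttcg
Hsp90b1, second: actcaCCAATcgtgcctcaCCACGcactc
Calr: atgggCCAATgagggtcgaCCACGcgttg
Canx: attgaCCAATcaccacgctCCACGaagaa
Pdia6: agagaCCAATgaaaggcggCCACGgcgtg
Dnajc3: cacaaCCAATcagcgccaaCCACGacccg

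Members with the ER element ranged from a log2 fold of -0.99 (Pdia6) to 0.75 (Dnajc3), so the same letters were found at genes that were lower and at 1 that was higher. The ER members with a window but no match, Dnajb9, Dnajb11 and Pdia4, had 0.58, 0.06 and -0.26.

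Abundant members tended to be lower. Across the 53 expressed members, the rank correlation of the mean log2 CPM of both libraries with the log2 fold was -0.41, while it was -0.02 across the 11996 expressed genes with counts in both libraries. The points share the same pair of libraries, and the value is a description. The 5 members at least 4-fold lower, against 3.07% of all genes, were Hspd1, Hsp90aa1, Hsph1, Fkbp4 and Hspa9, of which Hsph1 had the lowest untreated level, 625.4 CPM. That level depends on the cut: Hspe1, at 211.4 CPM when untreated, lay at its edge (3.997-fold lower). With total counts its log2 fold was -2.015, past 4-fold.

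**Figure D4:**
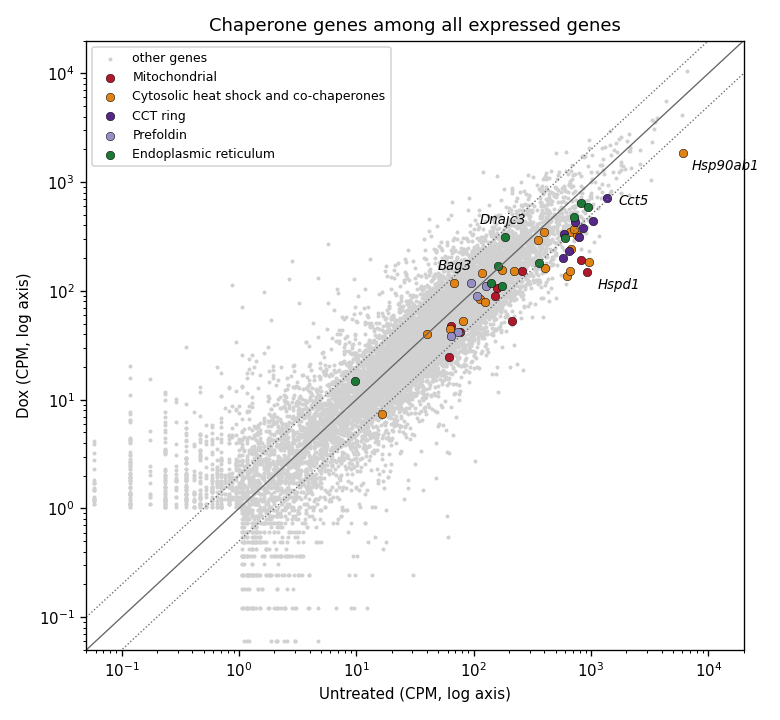
Level of expressed genes in the Dox library against the untreated library (CPM, log axes), with the 53 members coloured by compartment and 11996 genes with counts in both libraries in all; the solid line marks equal levels and dotted lines 2-fold. Hspd1 and Hsp90ab1 lie below the lower dotted line, the abundant Cct5 lies between that line and the solid line, and Bag3 and Dnajc3 lie above the solid line.

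Other genes of the same machinery were listed too, also with earlier results of these data known, and their median fold was that of all genes. Of 82 further chaperone and folding genes, 77 were expressed; 11 were lower by 2-fold or more (14.3%, against 13.0% of all genes) and 3 higher by as much (13.6% of all genes), with a median log2 fold of -0.01. Hence the lower levels describe the 54 members and not every chaperone gene.

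Of 13 other mitochondrial genes, 3 (23.1%) were at least 2-fold lower and 0 higher (median -0.18), against 13.0% and 13.6% of all expressed genes. Ppif, cyclophilin D of the permeability pore, had a log2 fold of -1.44, the protease gene Htra2 -1.36 and Bcs1l, a chaperone of respiratory complex assembly, -1.08. Dnajc15, a J-domain protein of the inner membrane, was higher at 84.4 and 164.9 CPM (0.96). Of 32 other expressed cytosolic genes, 7 (21.9%) were at least 2-fold lower and 2 higher (median -0.03), beside the same shares of all genes. Bag2, an inhibitor of the ubiquitin ligase CHIP, was at 39.2 and 7.45 CPM (-2.38), and Ppid, the cyclophilin partner of Hsp90, at 171.3 and 43.4 CPM (-1.98). Hspa12b, an Hsp70 relative known from endothelium, had 20 and 129 counts (2.63). The stress-inducible Hsp70 genes, near-identical copies whose reads may be shared, were scarcely present: Hspa1a had 8 and 12 counts and Hspa1b 31 and 7. Hsf2, another heat shock factor, had -0.30.

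Of 11 expressed helpers of CCT, prefoldin and tubulin folding outside the members, 0 were at least 2-fold lower or higher (median 0.00). Over all expressed genes 13.0% were lower and 13.6% higher by as much, and 0 among so few genes is not far from that. The farthest were the prefoldin-like Uxt (-0.71), the prefoldin subunit Pfdn6 (-0.53), Uri1 (-0.31) and the tubulin cofactor Tbca (-0.31). Of 21 other ER genes, 1 was at least 2-fold lower (4.76%, against 13.0% of all genes) and 1 higher (13.6% of all genes), with a median of 0.08. The isomerase Pdia5 was at 16.5 and 3.18 CPM (-2.33), the BiP cofactor Sdf2l1 at 64.8 and 32.7 CPM (-0.99), the oxidase Ero1lb at 8.90 and 18.7 CPM (1.06) and the ubiquitin ligase Syvn1 at 37.8 and 69.7 CPM (0.88).

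Of 10 expressed regulators of the ER stress response, 8 had a log2 fold above 0, as had 5983 of all 12125 expressed genes. At least 2-fold higher were 4 (13.6% of all genes), and 0 were lower by as much (13.0% of all genes), with a median of 0.45. The difference from the ER chaperones, of which 3 of 10 had a log2 fold above 0, was not tested. Ppp1r15a, which restores translation after stress, was at 18.5 and 62.2 CPM (1.75), and Creb3l2, a membrane-bound transcription factor of the ER, at 4.86 and 16.0 CPM (1.69). Ddit3, the stress factor CHOP, was at 7.56 and 21.6 CPM (1.497) and Ern1, the sensor IRE1, at 4.86 and 10.3 CPM (1.07). Xbp1 RNA was at 40.5 and 50.6 CPM (0.32), a gene count that does not separate its spliced form. Atf4, the factor of the integrated stress response, was at 217.2 and 142.1 CPM (-0.61). The summed macrophage and dendritic cell markers given above were also higher with Dox, and their part was not tested.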

How the data were processed

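RNA sequencing of sorted ALL211 cells was analysed, 1 untreated and 1 Dox library. The authors deposited unnormalized read counts for each gene, with a gene length column. CASAVA 1.8.2, featureCounts and mm10 are named, per the submitters' processing notes; aligner, strand setting and annotation are not given in the sources. The gene length, deposited by the authors as an other, non-measured column, served only for RPKM and a trend. The separate sample tables held the same counts (0 of 27179 genes differed), and 0 columns were left unassigned. The series design names a pair of mice per condition, and whether they were pooled is not stated.

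Symbols came from the RefSeq table of GRCm38.p6, which matched 25275 genes. Counts were scaled with TMM factors by edgeR 4.0.16 (R 4.3.3). Log2 folds have a prior count of 2, and CPM, RPKM and ratios have none. Ratio intervals are exact Clopper-Pearson 95% intervals of the conditional binomial, covering counting error only; PCR copies are not independent molecules. Promoter windows were from RefSeq (GRCm38.p6) and exon overlaps and pseudogenes from GENCODE M21. The steps were tested on simulated counts. All 54 members were named by rule, and of the other lists up to 4 genes with the largest absolute log2 fold plus Hspa1a, Hspa1b, Xbp1, Atf4, Ddit3 and Hsf2. The members and lists were chosen with earlier results of these data known. Alternatives were other scalings (total counts, upper quartile, DESeq2 1.42.0), prior counts, filters, thresholds, thinning and removal of a lowess trend with gene length. A listed marker gene is not reported here.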

Additional observations from a re-analysis of the deposited data

How the results depend on the processing

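Of the members' log2 folds, 477 values under 9 alternative settings held 4 changes of sign, all of Dnajb6, whose fold was near 0. The 17 members at least 2-fold lower became 35 at a 1.5-fold threshold (24.1% of all genes) and 5 at a 4-fold threshold; counting only intervals wholly beyond 2-fold left 16 (8.38% of all genes). The 0 members at least 2-fold higher became 2, Bag3 and Dnajc3, at 1.5-fold. The 0 ER members at least 2-fold lower became 1 with total counts, with DESeq2 size factors and with the gene length trend removed. The prefoldin median of -0.25 became -0.074 with the length trend removed. Of all genes, 1581 were at least 2-fold lower and 1644 higher; these became 2928 and 2856 at 1.5-fold and 372 and 541 at 4-fold, 1016 lower by intervals wholly beyond 2-fold, and 2993 higher with a filter of at least 1 count or 1091 with at least 5 CPM. No paired analysis was possible because each condition has 1 library, so no replicate could be left out either. Depth limits genes with few counts, among the members Hspb1, Ptges3 and Dnajb9, and outside them Hspa1a, Hspa1b, Hspa12b and Uxt.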
